A study of Mus musculus with 11 samples.

Results

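Prox1, Calb1, Neurod1, Neurod2 and Slc17a7, 5 genes taken here as granule neuron identity genes, were examined through the open chromatin called within 50 kb of their transcription starts. Not all of them are particular to granule neurons. The members were the merged peak regions in those windows, 51 of 128823 regions on chromosomes 1 to 19 and X, made from 224 peaks of the deposited lists. The windows were chosen by gene name and position alone, with no measured value in the rule. Chromatin accessibility had been measured by ATAC-seq, in which a transposase cuts and tags open DNA, in microdissected dentate gyrus of adult C57BL/6 mice 8 weeks old. All animals carried an adeno-associated virus (AAV), and each library came from 1 mouse. The 4 groups were shRNA-Ctrl E1 with 3 libraries, shRNA-Ctrl E0 with 3, shRNA-cFos E1 with 2 and shRNA-cFos E0 with 3, where shRNA-Ctrl is the control hairpin and shRNA-cFos the hairpin against c-Fos, an AP-1 transcription factor subunit induced by neuronal activity. The series concerns neuronal activation, and the E0 lists are named as sham. The stimulus given before E1, the promoter driving the hairpins and the share of cells infected are not given in the sources used here.

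Granule neurons are the principal excitatory cells of the dentate gyrus. Prox1 is a homeobox factor needed to form and maintain their identity, and Neurod1 and Neurod2 are basic helix-loop-helix factors that bind E-box sequences during neuronal differentiation and in mature excitatory neurons. Calb1 encodes the calcium buffer calbindin, which marks mature granule neurons, and Slc17a7 encodes VGLUT1, the transporter that loads glutamate into synaptic vesicles. Dissected tissue also holds interneurons, glia and vascular cells, so fewer cells of a type and less open chromatin per cell cannot be told apart in these lists. Markers of those other cells were not read here, since no gene annotation of build mm9 was at hand.

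The sequence in front of 4 of the 5 starts is shown because peaks at the starts are described first and because Neurod1 and Neurod2 themselves bind E-boxes. It comes from RefSeq on build GRCm38.p6, in which these promoters have other coordinates than in the mm9 lists, and covers the 250 bases before the annotated start (the 5′-most of 2 starts for Prox1), written 5′ to 3′ on the gene's strand. Capitals mark matches to the E-box CANNTG. The stretches are Prox1 at chr1:190170828-190171077, Neurod1 at chr2:79456637-79456886 and Neurod2 at chr11:98329646-98329895, all on the minus strand, and Slc17a7 at chr7:45163671-45163920 on the plus strand.
Prox1: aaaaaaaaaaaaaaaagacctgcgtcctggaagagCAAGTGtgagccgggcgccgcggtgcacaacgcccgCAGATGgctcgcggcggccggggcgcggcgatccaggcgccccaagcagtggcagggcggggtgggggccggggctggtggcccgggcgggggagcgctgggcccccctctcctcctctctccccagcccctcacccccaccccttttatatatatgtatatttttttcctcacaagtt
Neurod1: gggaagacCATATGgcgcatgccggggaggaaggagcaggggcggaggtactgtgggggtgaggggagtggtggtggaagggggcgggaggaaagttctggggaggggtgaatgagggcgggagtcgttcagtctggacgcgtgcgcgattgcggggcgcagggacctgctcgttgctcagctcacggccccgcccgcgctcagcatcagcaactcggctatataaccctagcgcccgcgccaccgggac
Neurod2: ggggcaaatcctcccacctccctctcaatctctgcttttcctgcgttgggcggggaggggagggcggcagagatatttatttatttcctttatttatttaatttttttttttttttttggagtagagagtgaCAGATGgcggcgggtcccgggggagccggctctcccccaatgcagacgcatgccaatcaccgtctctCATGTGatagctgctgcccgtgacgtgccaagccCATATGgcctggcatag
Slc17a7: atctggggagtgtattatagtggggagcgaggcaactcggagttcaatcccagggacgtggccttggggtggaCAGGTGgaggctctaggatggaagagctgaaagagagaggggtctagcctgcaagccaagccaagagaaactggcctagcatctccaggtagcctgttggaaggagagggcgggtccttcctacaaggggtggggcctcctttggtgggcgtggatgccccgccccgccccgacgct
Calb1 is named only.

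Both strands were searched for each motif. The E-box CANNTG reads as the same pattern on either strand and occurred in all 4 stretches, as it did in 66.2% of 32851 RefSeq promoters cut to the same length. Prox1 had 2 matches, 215 and 179 bases before its start, and Neurod1 had 1 at 242 bases. Neurod2 had 3, at 118, 51 and 17 bases, and Slc17a7 had 1 at 177 bases. The form CAGATG, which lies within the CANNTG matches, was found in Prox1 at 179 bases and in Neurod2 at 118 bases, and in 14.4% of all promoters. Neither TGANTCA, the AP-1 site bound by Fos and Jun proteins, nor TGACGTCA, the cAMP response element, was in any of the 4 stretches, against 6.75% and 1.55% of all promoters. The stretches were 64.8% G and C in Prox1, 67.6% in Neurod1, 52.8% in Neurod2 and 61.2% in Slc17a7, where the median promoter had 52.4%. These matches describe the letters and say nothing of binding.

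The lists differed in length by 3.12-fold, from 25145 to 78349 peaks, and read depth is unknown. The shRNA-Ctrl E1 lists held 78349, 35474 and 75908 peaks and the shRNA-Ctrl E0 lists 25145, 28391 and 29519. The shRNA-cFos E1 lists held 48262 and 40627 peaks and the shRNA-cFos E0 lists 33134, 74432 and 28417. The names of 9 lists carry an added word that those of shRNA-Ctrl E1 replicates 1 and 3 lack. Every result was therefore also read with each list cut to its 25145 top-scoring peaks, called lists of equal length, which left 22 of 59298 regions and 120 peaks in the windows. A peak's strength is given as its percentile, the percent of peaks in its own list with a score at or below its own, with 0 for no peak. A longer list adds mostly low-scoring peaks and can so raise the percentile of a given peak.

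How often a peak was called at the transcription start differed between the 5 genes. Calb1 had one in 11 of 11 libraries, Prox1 in 9, Neurod1 in 8, Neurod2 in 5 and Slc17a7 in 2, counting the merged region nearest to the start and within 1 kb of it. A region at -1.4 kb of Slc17a7, chr7:52417148-52418056, also had its edge within 1 kb of the start and was called in 7 libraries. Over the genome, 9.16% of regions were called in all 11 libraries. In lists of equal length the counts were 11 for Calb1, 5 for Slc17a7, 4 for Prox1 and 3 for Neurod1, with the Slc17a7 count now that of the region at -1.4 kb. No region then lay within 1 kb of the Neurod2 start, and 16.4% of regions were called in all 11. By this 1 kb rule the Calb1 promoter was the only one of the 5 that every list called under both readings. Just upstream of the Neurod1 promoter region, at -3.1 kb, another region was called in all 11 lists under both readings. Merging peaks up to 200 bp apart joined it to the promoter region, so the Neurod1 count depends on how regions are split.

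The Calb1 promoter region, chr4:15807654-15809876 in mm9, spanned 2223 bp. Its percentile was 83.9, 88.5 and 87 in shRNA-Ctrl E1 against 82.1, 93.5 and 78.2 in shRNA-Ctrl E0, and 94.3 and 93.4 in shRNA-cFos E1 against 87.6, 97.2 and 91 in shRNA-cFos E0. The lowest of the 11 values was 78.2, and the E1 and E0 groups overlapped within each shRNA. The E1 minus E0 difference was 1.87 percentile points (two-sided exact permutation test within shRNA, p = 0.53), and in lists of equal length it was -8.76 points (exact permutation p = 0.225). The shRNA-cFos minus shRNA-Ctrl difference was 7.35 points with an exact p of 0.03 and an adjusted p of 1 over all regions, where 1.14% of regions had an exact p under 0.05. At equal length that difference was 14.9 points (exact permutation p = 0.1), and 3.5% of regions had an exact p under 0.05.

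The Prox1 promoter region, chr1:191993775-191995159, spanned 1385 bp and lay mostly on the transcribed side of the start. Its percentile was 77.4 and 53.5 in shRNA-Ctrl E1 replicates 1 and 3, with no peak in replicate 2. In shRNA-Ctrl E0 it was 27.5 and 54.3 in replicates 2 and 3, with no peak in replicate 1. It was 42.9 and 5.66 in shRNA-cFos E1, and 20.1, 41.2 and 39 in shRNA-cFos E0. The 2 libraries without the peak belonged to different states, and E1 and E0 values overlapped, with a difference of 3.62 points (exact permutation p = 0.81). With equal lengths the direction turned, to -11.0 points (exact permutation p = 0.35).

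The Neurod1 promoter region, chr2:79293905-79296338, was the widest of the 51 at 2434 bp and lay mostly upstream of the start as given. Its percentile was 18.7 and 53.7 in shRNA-Ctrl E1 replicates 1 and 3 against 55.9 and 36.9 in shRNA-Ctrl E0 replicates 1 and 2, and 58.6 and 19.7 in shRNA-cFos E1 against 16.7 and 41.2 in shRNA-cFos E0 replicates 1 and 2. The 3 libraries without a peak were 1 of E1 and 2 of E0, and the difference of 6.50 points gave an exact permutation p of 0.67, against -9.0 points (exact permutation p = 0.52) at equal length. The Neurod2 region at the start, chr11:98190721-98191250, had peaks at percentiles 23.7 and 40.5 in shRNA-Ctrl E1 replicates 2 and 3, 2.85 in shRNA-Ctrl E0 replicate 3, and 57.1 and 2.78 in shRNA-cFos E0 replicates 2 and 3, with none in shRNA-cFos E1. The Slc17a7 region at the start, chr7:52418923-52419847, was called only in shRNA-Ctrl E1 replicate 3 and shRNA-cFos E1 replicate 2, at percentiles 5.88 and 2.3. A weak or uncalled peak at a start says only that the caller did not report one at these depths.

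The strongest recurrent peaks of the Neurod and Slc17a7 windows lay more than 1 kb from the starts as given. Of the 51 regions, 7 (13.7%) were called in all 11 libraries, against 9.16% of all regions, and 16 (31.4%) were called in 1 library, against 37.9%. The 7 comprised the Calb1 promoter, 2 regions near Neurod1, 1 near Neurod2 and 3 near Slc17a7, and none near Prox1. The median region of the windows was 602 bp wide and called in 3 libraries, and the median region of the genome was 504 bp wide and called in 2. After the cut 4 of 22 regions (18.2%) were called in all 11, against 16.4%.

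**Figure D1:**
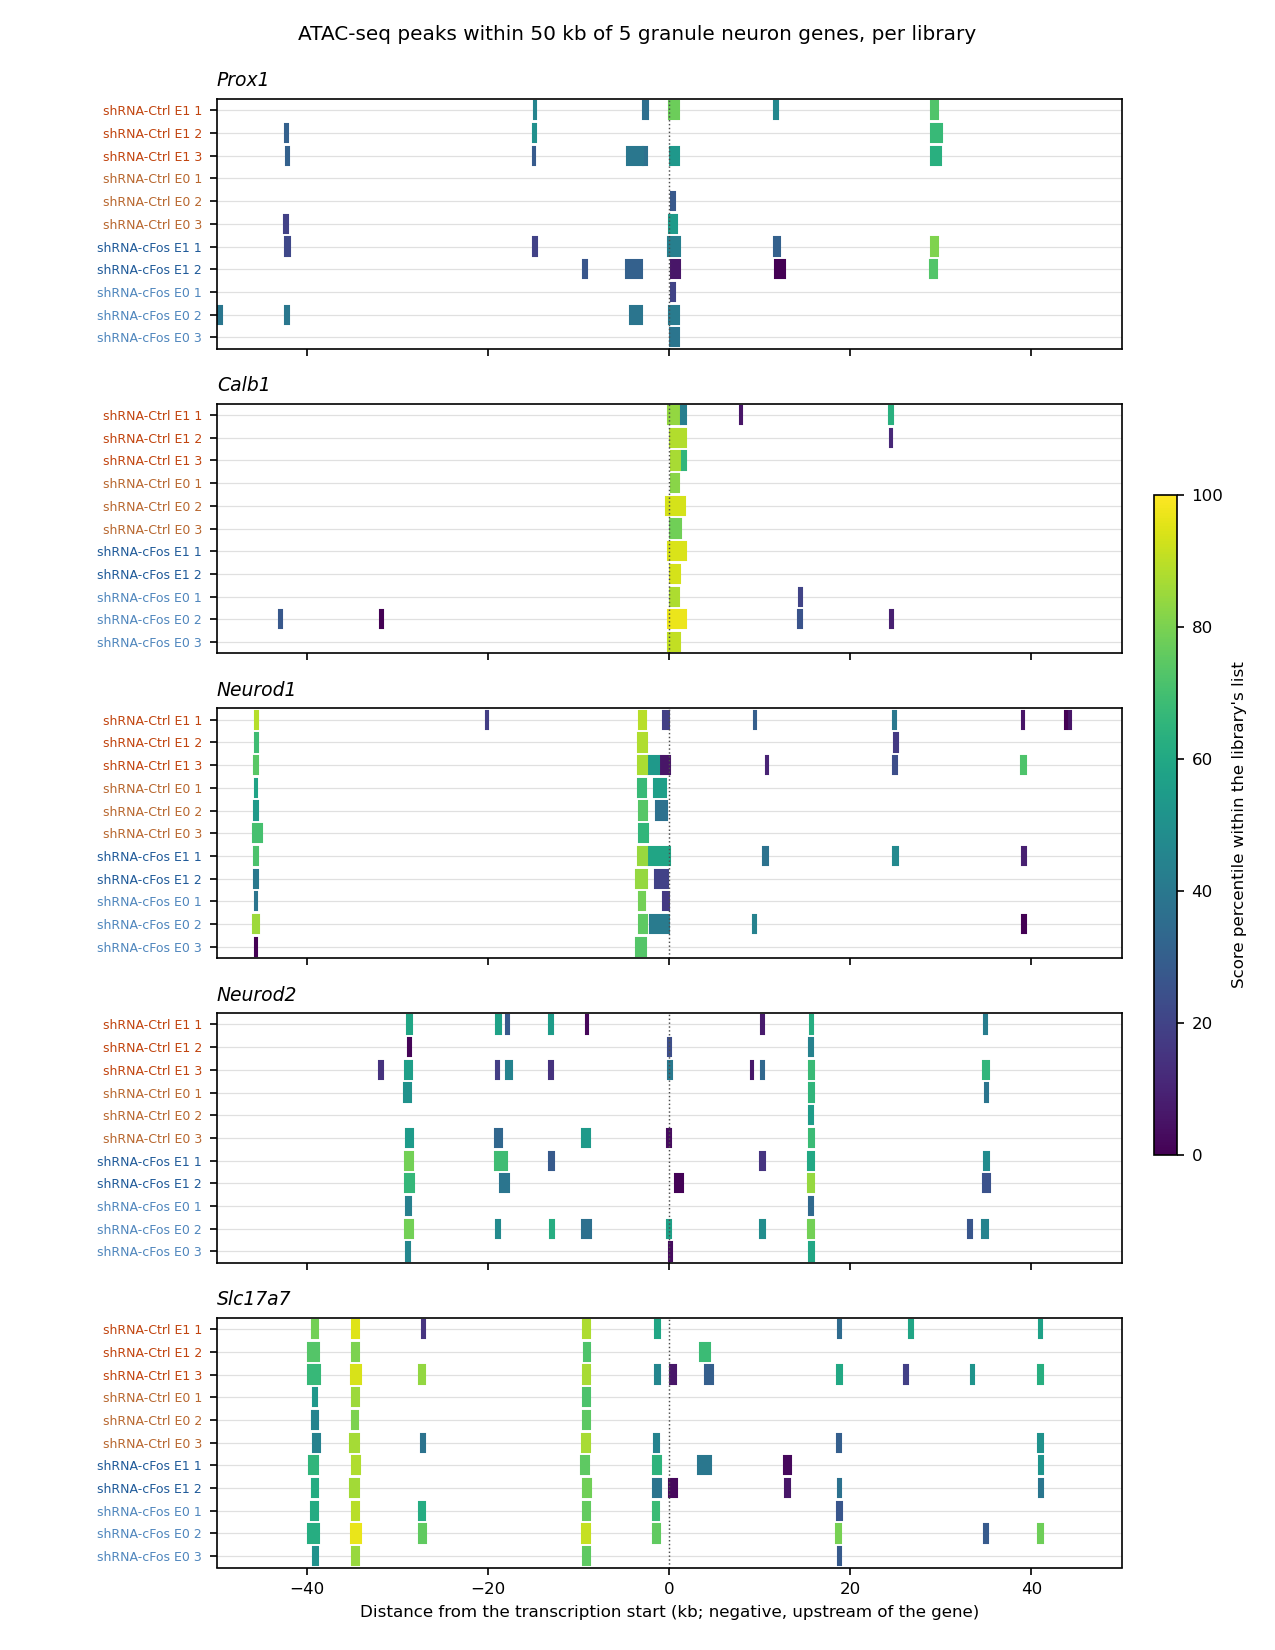
Peaks within 50 kb of the 5 starts, 1 panel per gene and 1 line per library, as deposited. The x axis is the distance from the start in kb with upstream negative, and colour is the percentile of the peak's score in its list. The Calb1 promoter and the peaks at -3.1 kb of Neurod1 and -34.7 kb of Slc17a7 stand on all 11 lines, and the Prox1 peak at 29.5 kb stands on the 5 E1 lines.

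Near Slc17a7 the region at -34.7 kb, chr7:52383676-52384945, had percentiles from 80.1 to 96.8 over the 11 libraries and stayed in all 11 lists of equal length. The region at -9.2 kb, chr7:52409232-52410348, had percentiles of 87.6, 72.2 and 87.1 in shRNA-Ctrl E1 against 71.5, 74.8 and 87.1 in shRNA-Ctrl E0, and 75.2 and 78.4 in shRNA-cFos E1 against 75.8, 91.2 and 75.3 in shRNA-cFos E0. As deposited these groups overlapped, and E1 minus E0 was 0.263 points (exact permutation p = 0.895). In lists of equal length it was called in all 11 libraries again, at 61.4, 60.8, 60.9, 52.4 and 65 in the 5 E1 libraries, against 71.5, 71.6, 84.8, 68.1, 74.1 and 72.1 in the 6 E0 libraries. Every E1 value was then below every E0 value, with means of 60.1 and 73.7, a difference of -13.8 points, an exact p of 0.005, the smallest these labels allow, and an adjusted p of 0.162. At equal length 10.5% of all regions had an exact p under 0.05.

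The third Slc17a7 region in all libraries, at -39.2 kb (chr7:52379066-52380446), had percentiles of 78.9, 73.4 and 67 in shRNA-Ctrl E1 against 53.5, 44.9 and 44.3 in shRNA-Ctrl E0, and 65.3 and 61.4 in shRNA-cFos E1 against 61.1, 62.1 and 50.9 in shRNA-cFos E0. The shRNA-Ctrl groups did not overlap and the shRNA-cFos groups did. E1 minus E0 was 15.4 points with an exact p of 0.025 and an adjusted p of 0.407, where 7.88% of all regions had an exact p under 0.05. At equal length it was -2.58 points (exact permutation p = 0.815), so the direction turned with the list length. The protein-coding genes next to Slc17a7 in RefSeq order are Pih1d1 and Aldh16a1 upstream and Gfy and Pth2 downstream, and regions were not assigned to any of them.

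Near Neurod1 a region at -3.1 kb, chr2:79296415-79297732, was called in all 11 libraries under both readings. Its percentile was 89.4, 87.9 and 87.3 in shRNA-Ctrl E1 against 67.2, 73.6 and 65.7 in shRNA-Ctrl E0, and 84.5 and 84.1 in shRNA-cFos E1 against 78.8, 75.1 and 73.2 in shRNA-cFos E0. All 5 E1 values stood above all 6 E0 values, with means of 86.7 and 72.3. The difference of 14 points had an exact p of 0.005 and an adjusted p of 0.301 over all regions. After the cut to equal length the values were 67, 82.9, 61.7, 70.3 and 74.3 in E1 and 67.2, 70.2, 59.8, 72, 26.2 and 69.7 in E0, which overlapped, and the difference of 10.6 points had an exact p of 0.36. The E1 effect at this region and at the Slc17a7 region at -39.2 kb was smaller in shRNA-cFos than in shRNA-Ctrl by an exact test with p under 0.05 and an adjusted p of 1, as deposited but not at equal length, where 1.98% and 1.55% of all regions passed that test under the 2 readings. This region lay just upstream of the promoter region, and with peaks up to 200 bp apart merged, the joined promoter region was called in 11 of 11 libraries.

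Other regions recurred around the Neurod genes. The region at -45.5 kb of Neurod1, chr2:79339038-79339993, was called in all 11 libraries at percentiles from 0.317 to 88.7, with the lowest value in shRNA-cFos E0 replicate 3. The region at 15.7 kb downstream of the Neurod2 start, chr11:98174983-98175710, had percentiles of 62.4, 44.2 and 67.7 in shRNA-Ctrl E1 against 65.3, 54.7 and 68.1 in shRNA-Ctrl E0, and 59.9 and 84.3 in shRNA-cFos E1 against 33.9, 78.6 and 59.6 in shRNA-cFos E0. As deposited these 4 groups overlapped. At equal length the shRNA-Ctrl groups did not, with no peak, 21.3 and 2.54 in E1 against 65.3, 48.9 and 62.6 in E0. The Neurod2 region at -28.8 kb, chr11:98219206-98220312, was called in 10 libraries and was missing from shRNA-Ctrl E0 replicate 2. At equal length this region was called in 7 libraries, and the Neurod1 region at -45.5 kb in 10.

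As deposited, the Prox1 window had the only region of the 51 called in every E1 library and in no E0 library. It lay 29.5 kb from the start on the transcribed side, at chr1:191964850-191966169. Its percentile was 72.3, 67.4 and 63.2 in shRNA-Ctrl E1 and 80.7 and 73 in shRNA-cFos E1, and no peak was called in the 3 libraries of shRNA-Ctrl E0 or the 3 of shRNA-cFos E0. The called peaks were 770, 1197 and 1044 bp wide in shRNA-Ctrl E1 and 742 and 784 bp in shRNA-cFos E1, so both hairpin groups had it. The mean percentile was 71.3 in E1 and 0 in E0, a difference of 72.2 points, which is given without a test because the region is named here for this pattern. Over the genome 1104 regions, 0.857%, were called in every E1 and no E0 library, and 0.00233% the other way. The median of their E1 mean percentiles was 51.9, and 90.5% of them had a lower mean than this region.

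**Figure D2:**
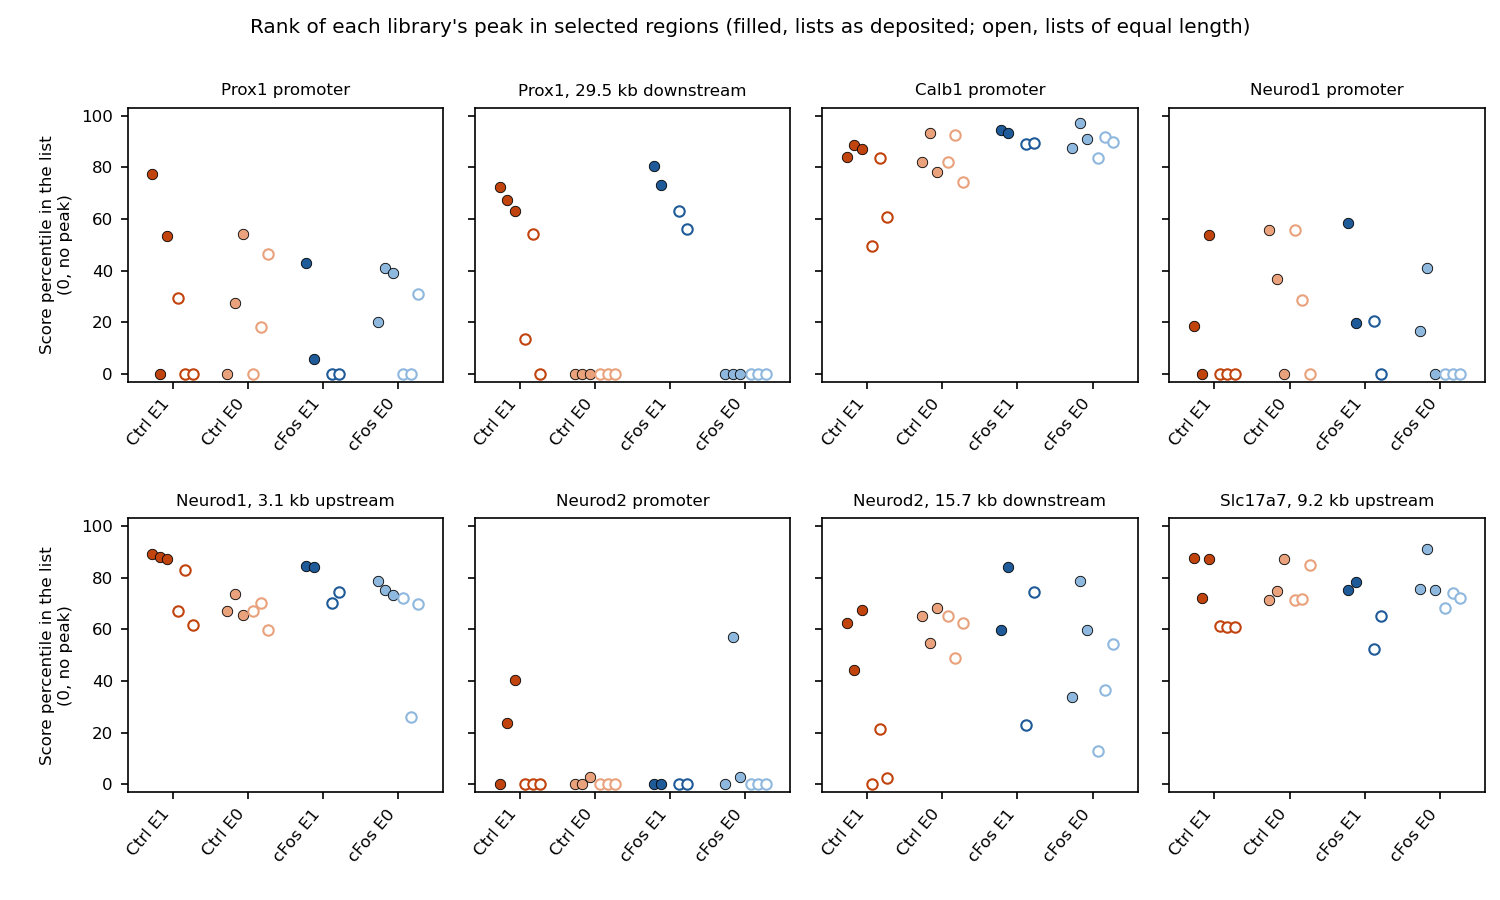
Score percentile of 8 regions in each library, by group, with 0 for no peak. Filled points are the lists as deposited and open points the lists of equal length. The Prox1 region 29.5 kb downstream has points above 0 in E1 libraries only, and the Neurod1 region 3.1 kb upstream has its 5 filled E1 points above its 6 filled E0 points.

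With lists of equal length the Prox1 region kept a peak in 4 of 5 E1 libraries, at 13.5 and 54.1 in shRNA-Ctrl E1 replicates 1 and 2 and 63 and 56.3 in shRNA-cFos E1, and in no E0 library. shRNA-Ctrl E1 replicate 3 had no peak there, so the region no longer met the rule of every E1 library, which 0.963% of regions met at that length, and 0.106% the other way. The list of shRNA-cFos E0 replicate 2, with 74432 peaks, had no peak in the region. Longer lists were otherwise more common at E1, so list length and state cannot be told apart here. The part of list length in the result was not tested beyond this cut.

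Weaker Prox1 regions were also called at E1 alone. The region at -14.8 kb, chr1:192009598-192010072, had percentiles of 45.1, 49.7 and 28.2 in shRNA-Ctrl E1 and 19.8 in shRNA-cFos E1 replicate 1, with no peak in any E0 library. At equal length only shRNA-Ctrl E1 replicate 2 had it. The region at 12.2 kb downstream, chr1:191982280-191983410, had 46.8 in shRNA-Ctrl E1 replicate 1 and 30.8 and 0.0911 in shRNA-cFos E1, again with no E0 peak. None of the lists of equal length held this region. A region at -42.2 kb was called in 5 libraries of both states.

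Counted over the windows, E1-specific regions were no more frequent than in the genome for shRNA-Ctrl. In shRNA-Ctrl, 3 of 51 regions (5.88%) were in every E1 and no E0 library, against 6.04% of all regions, and none was in every E0 and no E1 library, against 0.0442%. They were the 2 Prox1 regions at 29.5 and -14.8 kb and a Neurod1 region 25 kb downstream, chr2:79268733-79269289. In shRNA-cFos, 3 of 51 (5.88%) were in every E1 and no E0 library, against 1.96%, and none the other way, against 0.548%. These were the Prox1 regions at 29.5 and 12.2 kb and a Slc17a7 region at 13.0 kb, chr7:52431614-52432467. With lists of equal length the shRNA-Ctrl counts were 0 of 22 in both directions, against 3.51% and 1.15%. The shRNA-cFos counts were then 2 (9.09%) in every E1 and no E0 library, against 3.39%, and 1 (4.55%) the other way, against 1.54%. Each of these counts rests on at most 3 regions.

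The Neurod1 region at 25 kb had percentiles of 40, 16.9 and 23.7 in shRNA-Ctrl E1 and 46.9 in shRNA-cFos E1 replicate 1, with no E0 peak. It was in none of the lists of equal length. The Slc17a7 region at 13.0 kb had a peak in both libraries of shRNA-cFos E1 and nowhere else, at percentiles 2.28 and 5.89, near the bottom of their lists. No region of the genome reached an adjusted p under 0.05 for E1 against E0, although 10153 had an exact p under 0.05. Even if all 10153 had the smallest p that the relabelings allow, none would have reached an adjusted p under 0.05. The adjusted values as deposited therefore cannot show that no region differed.

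The number of peaks within 50 kb was highest for Slc17a7 and next for Neurod2 in the mean of every group. Over the 11 libraries it averaged 6.27 ± 2.53 for Slc17a7, 5 ± 2.97 for Neurod2, 4.18 ± 2.27 for Neurod1, 3 ± 2.10 for Prox1 and 1.91 ± 1.38 for Calb1 (SD, n = 11). Neighbours in that order differed by less than their SDs. These SDs are over the same 11 libraries for every gene and include the range of list lengths. They do not measure the spread of a difference between genes, which was not tested. The median 100 kb window with a peak held 1.64 peaks per library, and 1.31% of such windows held at least as many as Slc17a7, 4.71% as many as Neurod2, 9.86% as many as Neurod1, 23.5% as many as Prox1 and 44.6% as many as Calb1. In lists of equal length the means were 4.55 for Slc17a7, 2.27 for Neurod1, 2.09 for Neurod2 and 1 each for Prox1 and Calb1, so Neurod1 and Neurod2 changed places. The shares of windows with at least as many were then 1.22% for Slc17a7, 16.7% for Neurod1, 20.3% for Neurod2 and 55.0% for Prox1 and for Calb1.

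The Prox1 window held 5, 3 and 6 peaks in shRNA-Ctrl E1 against 0, 1 and 2 in shRNA-Ctrl E0, and 5 and 5 in shRNA-cFos E1 against 1, 4 and 1 in shRNA-cFos E0. Within each hairpin every E1 library had more than every E0 library. The mean was 4.8 ± 1.10 in E1 (SD, n = 5) and 1.5 ± 1.38 in E0 (SD, n = 6), and the mean of the 2 within-shRNA differences was 3.33 peaks (exact permutation p = 0.015, adjusted p = 0.495). The differences were 3.67 within shRNA-Ctrl (exact permutation p = 0.1) and 3 within shRNA-cFos (exact permutation p = 0.2), where the smallest possible p is 0.1. Among 23264 windows 7.27% had an exact p under 0.05 and 78% a positive difference. In lists of equal length these shares were 6.86% and 40.7%. The length covered by peaks was 3145, 1837 and 4770 bp in shRNA-Ctrl E1 against 0, 450 and 1261 bp in shRNA-Ctrl E0, and 3715 and 4992 bp in shRNA-cFos E1 against 471, 3362 and 996 bp in shRNA-cFos E0, a difference of 2712 bp (exact permutation p = 0.015), where 11.7% of windows had an exact p under 0.05.

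Shortening the lists lowered the Prox1 difference. At equal length the window held 2, 3 and 0 peaks in shRNA-Ctrl E1 against 0, 1 and 2 in shRNA-Ctrl E0, and 1 and 1 in shRNA-cFos E1 against 0, 0 and 1 in shRNA-cFos E0, and the groups overlapped, with a difference of 0.667 peaks (exact permutation p = 0.295). Per 10000 peaks of each list, a scaling added after seeing the data, the difference was 0.576 (exact permutation p = 0.01, adjusted p = 0.225).

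**Figure D3:**
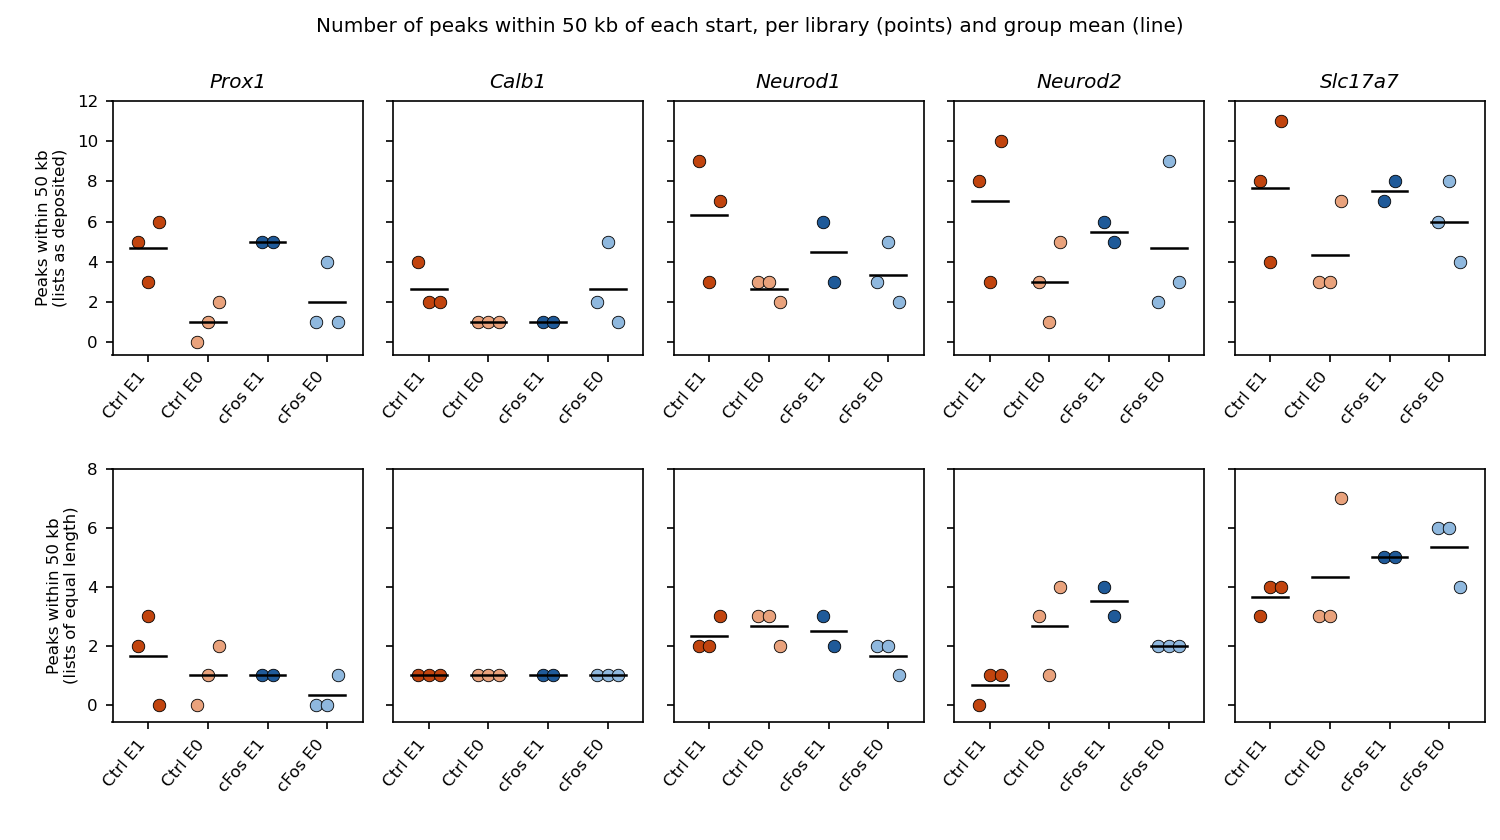
Number of peaks within 50 kb of each start in each library, with lists as deposited above and of equal length below. Points are libraries and lines group means. As deposited, Prox1 has 3 to 6 peaks in E1 and 0 to 4 in E0, and Calb1 has 1 peak in every library at equal length.

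The other windows overlapped between E1 and E0. Neurod1 held 9, 3 and 7 peaks in shRNA-Ctrl E1 against 3, 3 and 2 in shRNA-Ctrl E0, and 6 and 3 in shRNA-cFos E1 against 3, 5 and 2 in shRNA-cFos E0. Neurod2 held 8, 3 and 10 in shRNA-Ctrl E1 against 3, 1 and 5 in shRNA-Ctrl E0, and 6 and 5 in shRNA-cFos E1 against 2, 9 and 3 in shRNA-cFos E0. Slc17a7 held 8, 4 and 11 in shRNA-Ctrl E1 against 3, 3 and 7 in shRNA-Ctrl E0, and 7 and 8 in shRNA-cFos E1 against 6, 8 and 4 in shRNA-cFos E0. In each of these 3 windows the difference was 2.42 peaks, with exact permutation p of 0.105 for Neurod1, 0.24 for Neurod2 and 0.11 for Slc17a7. At equal length it was 0.25 peaks for Neurod1 (exact permutation p = 0.61), -0.25 for Neurod2 (exact permutation p = 0.8) and -0.5 for Slc17a7 (exact permutation p = 0.625), so 2 of the 3 directions turned. Calb1 held 4, 2 and 2 in shRNA-Ctrl E1 against 1, 1 and 1 in shRNA-Ctrl E0, and 1 and 1 in shRNA-cFos E1 against 2, 5 and 1 in shRNA-cFos E0, so that the shRNA-Ctrl groups did not overlap (exact permutation p = 0.1) and the mean difference over both hairpins was 0 (exact permutation p = 1). At equal length Calb1 had 1 peak, its promoter, in every library. The high counts came mostly from the 3 longest lists, shRNA-Ctrl E1 replicates 1 and 3 and shRNA-cFos E0 replicate 2, which held 34, 36 and 31 peaks in the 5 windows together, against 9 to 25 in the other 8 libraries.

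Between the hairpins, over both states, no window had an exact p under 0.05 for its number of peaks. At E1 alone, as deposited, Calb1 held 1 and 1 peaks in shRNA-cFos and 4, 2 and 2 in shRNA-Ctrl, which did not overlap (exact permutation p = 0.3). As deposited, shRNA-cFos minus shRNA-Ctrl was 0.667 peaks for Prox1 (exact permutation p = 0.485), 0 for Calb1 (exact permutation p = 1), -0.58 for Neurod1 (exact permutation p = 0.705), 0.0833 for Neurod2 (exact permutation p = 0.99) and 0.75 for Slc17a7 (exact permutation p = 0.68). Of all windows 0.451% had an exact p under 0.05 in this comparison, and 2.05% at equal length. Whether the E1 effect differed between hairpins was tested directly, and the difference of effects ran from -3.33 peaks for Calb1 (exact permutation p = 0.06) to -0.667 for Prox1 (exact permutation p = 0.71), with adjusted p from 0.719 to 0.929. In that test 3.02% of all windows had an exact p under 0.05. At equal length the differences of effects ran from 0 for Prox1 and Calb1 to 3.5 peaks for Neurod2 (exact permutation p = 0.065). By covered length at equal length, the difference of effects was 2480 bp for Neurod1 (exact permutation p = 0.01) and 3172 bp for Neurod2 (exact permutation p = 0.035), both with an adjusted p of 1, where 1.99% of windows had an exact p under 0.05. As deposited it was 895 bp for Neurod1 (exact permutation p = 0.61) and 498 bp for Neurod2 (exact permutation p = 0.845). The cut shortened the lists of shRNA-Ctrl E1 replicates 1 and 3 the most. Neurod2 peaks then covered 3418 and 2598 bp in shRNA-cFos E1 against 1023, 1589 and 1005 bp in shRNA-cFos E0, and 0, 424 and 619 bp in shRNA-Ctrl E1 against 1623, 472 and 3058 bp in shRNA-Ctrl E0. Neurod1 peaks covered 3795 and 1740 bp in shRNA-cFos E1 against 910, 1476 and 1051 bp in shRNA-cFos E0, and 1183, 1307 and 1955 bp in shRNA-Ctrl E1 against 2547, 2542 and 1929 bp in shRNA-Ctrl E0. Within shRNA-cFos the E1 libraries stood above the E0 libraries for both genes, and the shRNA-Ctrl groups overlapped. At E0, none of the 51 regions was in every library of shRNA-cFos and none of shRNA-Ctrl, against 1.11% of all regions, and none the other way, against 0.0217%. At equal length none of 22 was in either direction, against 0.96% and 0.418%.

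At E1 the hairpins separated in a few regions, chiefly after the lists were shortened. As deposited 1 of 51 regions (1.96%) was in both shRNA-cFos E1 libraries and in no shRNA-Ctrl E1 library, against 0.534%, namely the weak Slc17a7 region at 13.0 kb, and none was the other way, against 1.59%. With shortened lists 4 of 22 (18.2%) were in both shRNA-cFos E1 libraries and in no shRNA-Ctrl E1 library, against 1.7%, and none was the other way, against 1.08%. They were the Neurod2 regions at -18.5 kb (chr11:98208751-98210308) and -28.8 kb and the Slc17a7 regions at -1.4 kb and 41.0 kb. In shRNA-cFos E1 their percentiles were 40.8 and 1.23 at -18.5 kb, 59 and 45.9 at -28.8 kb, 31.9 and 0.807 at -1.4 kb, and 7.31 and 1.89 at 41.0 kb. All 4 had peaks in shRNA-Ctrl E1 replicates 1 and 3 before shortening, which cut those lists, the longest of the 11, the most.

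The window counts at equal length showed the same 2 genes. These counts, and the Neurod2 covered length at equal length, include peaks of the 4 regions above, so they are no separate evidence. Neurod2 held 4 and 3 peaks in shRNA-cFos E1 and 0, 1 and 1 in shRNA-Ctrl E1, with no overlap and a difference of 2.83 peaks (exact permutation p = 0.1, the smallest possible). Slc17a7 held 5 and 5 in shRNA-cFos E1 and 3, 4 and 4 in shRNA-Ctrl E1, with no overlap and a difference of 1.33 (exact permutation p = 0.1). As deposited both overlapped, with 6 and 5 peaks in shRNA-cFos E1 against 8, 3 and 10 in shRNA-Ctrl E1 for Neurod2, and 7 and 8 against 8, 4 and 11 for Slc17a7. At equal length 1 further Slc17a7 region, at 18.7 kb, was in every shRNA-cFos E0 library and in no shRNA-cFos E1 library, at percentiles 3.58, 39 and 18.5.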

How the data were processed

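The data were 11 peak lists of ATAC-seq libraries. The submitters' processing notes name Bowtie2 and build mm9. The deposited peak names carry the word MACS, and the caller's settings, read filters and transposase shift are not given in the sources used here. Each deposited peak has a score from 50 to 3100 whose scale no header states, so the score was used only as a rank within its list and for 1 minimum of 100. Lists were made per library, not from pools. Read depth is unknown.

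On chromosomes 1 to 19 and X, peaks with 1 bp or more in common were joined into merged regions. The mm9 starts were used as given, to the nearest 1 kb, and were not checked against an mm9 annotation. Promoter regions and distances therefore rest on those starts. Two-sided exact permutation tests, checked on simulated data, permuted E1 and E0 within shRNA, or shRNA within state (200 relabelings, smallest p 0.005), on every region or every 100 kb window with a peak, with Benjamini-Hochberg adjustment over all of them. E1 minus E0 is the mean of the within-shRNA differences. Peak lists hold no counts, so no count model was used. Regions named are those at promoters, the 3 others per gene called in most libraries, and those in every library of 1 group and none of another. Alternatives were equal list lengths, a score minimum, other windows and promoter distances, merging within 200 bp, covered length, lists with the added word only, a replicate block, leaving out each library, and peaks per 10000, the last chosen after seeing the data. The gene and marker lists meant for an mm9 annotation were not used here. The members and lists were chosen with earlier results of these data known. Python 3.11.15, numpy 2.4.6, scipy 1.17.1 and matplotlib 3.10.9 were used. Promoter sequences and gene order came from RefSeq tables on GRCm38.p6, in which 4 of the 5 genes matched.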

Additional observations from a re-analysis of the deposited data

Results flagged for a closer look

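For 3 regions the E1 effect on the score percentile differed between the hairpins with an exact permutation p under 0.05, and all 3 had an adjusted p of 1 over all regions. As deposited, 1.98% of all regions had such a p, and 1.55% in lists of equal length. At the Neurod1 region 3.1 kb upstream the shRNA-cFos effect of E1 less the shRNA-Ctrl effect was -10.7 percentile points (exact p = 0.01), with E1 above E0 in both hairpins. The Slc17a7 region at -39.2 kb had a difference of -20.3 points (exact p = 0.025). In lists of equal length these 2 differences were 11.5 points (exact p = 0.59) and 13.9 points (exact p = 0.615), of the opposite sign. The Neurod2 region at 15.7 kb had a difference of 65.1 points in lists of equal length (exact p = 0.02), where its percentile was 23 and 74.6 in shRNA-cFos E1, 12.9, 36.7 and 54.3 in shRNA-cFos E0, 21.3 and 2.54 with 1 library lacking a peak in shRNA-Ctrl E1, and 65.3, 48.9 and 62.6 in shRNA-Ctrl E0. As deposited its difference was 19.3 points (exact p = 0.305).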

How the results depend on the processing

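Depth is unknown, so a missing peak is not absent openness, and with 2 or 3 libraries a group no comparison within a hairpin can reach an exact p under 0.1. The Prox1 E1 minus E0 peak difference kept its sign under every alternative run and was 1.33 at a score of at least 100 (exact p = 0.01), 2.5 with only the lists carrying the added word (exact p = 0.05), 2.25 within 25 kb and 5.75 within 100 kb, and 3 to 3.83 leaving out each library in turn. It had an exact p above 0.05 at equal length and under the replicate block (3.08, exact p = 0.0625, the smallest possible). Same-numbered E1 and E0 libraries had correlations between -0.0423 and 0.0925, and different-numbered ones between -0.0914 and 0.078. These values show no pairing by number and cannot exclude one. Under the block no result could have an exact p under 0.05, so it is no check on the results already above 0.05. No peak-number or promoter result had an adjusted p under 0.05 under any alternative run, where the few relabelings limit how low it can go.

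For E1 minus E0 peaks, equal length gave -0.25 for Neurod2 and -0.5 for Slc17a7, and per 10000 peaks Slc17a7 gave -0.0312. For shRNA-cFos minus shRNA-Ctrl, Prox1 was -0.667 at equal length and -0.667 at the score minimum, Slc17a7 0 at that minimum, Neurod1 1.08 with the added word, Neurod2 -0.25 within 25 kb and Neurod1 516 bp by covered length. For the difference of E1 effects, equal length gave 0 for Prox1, 0 for Calb1, 1.17 for Neurod1, 3.5 for Neurod2 and 0.333 for Slc17a7. The score minimum gave 0.5 for Neurod1, and 25 kb gave 0.167 for Slc17a7. The added word gave 1 for Prox1, 0.833 for Neurod1, 0.833 for Neurod2 and 1.83 for Slc17a7. Covered length gave 63.5 bp for Prox1, 895 bp for Neurod1 and 498 bp for Neurod2. Per 10000 peaks it was 0.321 for Prox1, 0.234 for Neurod1, 0.299 for Neurod2 and 0.620 for Slc17a7.

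The Prox1 promoter was called in 81.8% of libraries as deposited, 36.4% at equal length and 27.3% at the score minimum. Its percentile difference, E1 minus E0, was -11.0 at equal length and -18.2 with the added word. Equal length gave -8.76 for Calb1, -9.0 for Neurod1 and no value for Neurod2. For Slc17a7 the nearest region within 1 kb was then another one, at -1.4 kb, with -11.9. The score minimum gave -3.61 for Neurod2 and -2.23 for Slc17a7, again not at the region nearest its start as deposited, the added word -5.56 for Neurod1 and the replicate block -4.05 for Neurod2.

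Regions separating groups numbered, at equal length, 0 for shRNA-Ctrl E1 over E0, 1 for shRNA-cFos E0 over E1 and 4 for shRNA-cFos E1 over shRNA-Ctrl E1. At the score minimum they were 1 for shRNA-Ctrl E1 over E0, 1 for shRNA-cFos E1 over E0 and 0 for shRNA-cFos E1 over shRNA-Ctrl E1. With the added word they were 5 for shRNA-Ctrl E1 over E0, 8 for shRNA-cFos E1 over shRNA-Ctrl E1 and 2 the other way. Only 1 shRNA-Ctrl E1 list, that of replicate 2, carries the added word. Every or no library of that group then means 1 list, which loosens the rule for all regions. Within 100 kb the counts were 8 for shRNA-Ctrl E1 over E0 and 3 for shRNA-Ctrl E1 over shRNA-cFos E1. No share over all regions is given beside the counts at the score minimum, with the added word or within 100 kb.

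Leaving out each library in turn, shRNA peak differences ran from -1.42 to 0.167 for Neurod1 (above 0 without shRNA-Ctrl E1 replicate 1 or shRNA-cFos E1 replicate 2), -1 to 0.833 for Neurod2 and -0.167 to 1.58 for Slc17a7 (below 0 without shRNA-Ctrl E1 replicate 2). The Prox1 difference of E1 effects ran from -1.5 to 0.333, highest without shRNA-cFos E0 replicate 2. Promoter percentile differences ran from -5.70 to 14.5 for Prox1, -3.22 to 16.2 for Neurod1 and -4.75 to 9.53 for Neurod2. Counts ran from 3 to 7 for shRNA-Ctrl E1 over E0 (7 without its E1 replicate 2) and 0 to 1 for shRNA-cFos E0 over shRNA-Ctrl E0. Without shRNA-cFos E0 replicate 2 the count for shRNA-cFos E1 over E0 was 6. Without shRNA-cFos E0 replicate 3 the count for shRNA-cFos E0 over E1 was 2. Leaving out either shRNA-cFos E1 library leaves 1 in that group, so those counts are not given. Each omission loosens the rule for all regions, and no share over all regions is given beside these counts.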
